A study of Homo sapiens with 4 samples.

Results

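The genes described here are 8 small noncoding RNAs that RNA polymerase III makes and that, unlike the signal recognition particle RNA, carry no Alu domain. They were taken from a fixed list of Ensembl IDs: RN7SK (ENSG00000283293), RMRP (ENSG00000277027), RPPH1 (ENSG00000277209), VTRNA1-1 (ENSG00000199990), VTRNA1-2 (ENSG00000202111), VTRNA1-3 (ENSG00000202515), RNY1 (ENSG00000201098) and RNY3 (ENSG00000202354). All 8 are present among the 60676 IDs of each library. The list itself pairs IDs with names; the reference tables used here hold no Ensembl IDs, so the pairing was not checked against them.

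The libraries come from MiaPaCa, an established human pancreatic cancer cell line grown in RPMI1640 with serum. The cells were electroporated with a plasmid for SRP9, which binds the Alu end of the RNA in the signal recognition particle, as variant 1 or variant 2, each joined to a nuclear localisation signal and a 3xFLAG tag. They were selected with Geneticin and sorted for the acGFP1 reporter; the labels do not say whether the sorted cells came from 1 clone. There were 4 groups of 1 library each: RNA co-precipitated with tagged variant 1 (the v1 precipitate), RNA co-precipitated with tagged variant 2 (the v2 precipitate), and the whole-cell RNA of each of these experiments (the v1 input and the v2 input). Every group carries a construct, the inputs included. A precipitation from cells without the tag was not analysed here, so RIP levels are set against whole-cell RNA and against each other, and RNA held by the tagged protein cannot be told apart from RNA carried along.

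The v1 precipitate held 3921361 counts and the v2 precipitate held 5211354, against 50454080 in the v1 input and 58815384 in the v2 input. The IDs of other genes could not be matched to names, so cell line markers, the transfected gene, the Alu-domain RNAs and the proteins that bind these 8 RNAs were not read. Levels are counts relative to the library total (CPM), not divided by transcript length, and are compared between libraries for 1 gene at a time. Ratios of RIP over input use TMM scaling, which puts them below ratios on library totals, so both are given where it matters. Intervals are 95% intervals from exact formulas (Poisson for a level, Clopper-Pearson for a ratio of libraries), or normal approximations where so named, and cover counting error only. The formulas take each value as a count of reads, so the intervals are approximate where values are fractional or reads may be shared between IDs.

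RNA polymerase III transcribes short, structured RNAs that mostly act inside RNA-protein particles. The 7SK RNA (RN7SK) holds the elongation factor P-TEFb inactive in the nucleus. RMRP is the RNA of RNase MRP, which cuts the ribosomal RNA precursor in the nucleolus, and RPPH1 is the RNA of RNase P, which trims the 5′ end of transfer RNA precursors; both particles share most of their proteins. The vault RNAs (VTRNA1-1, VTRNA1-2 and VTRNA1-3) are bound to the large cytoplasmic vault particle or lie free, and Y RNAs (RNY1 and RNY3) bind the Ro60 protein and have been tied to DNA replication. Some of these genes lie side by side: in the RefSeq gene table of GRCh38.p14 VTRNA1-2 neighbours VTRNA1-3, and RNY3 neighbours RNY1, while RMRP lies next to CCDC107 and RPPH1 next to PARP2.

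The longer RNAs had equal or nearly equal values to a neighbouring ID, as if reads were shared between them, which was not tested. RN7SK and ENSG00000202198 on the adjacent row had the same value in all 4 libraries, as had RMRP and ENSG00000269900. RPPH1 and ENSG00000259001 differed by at most 1.32%. For RMRP, the values of both IDs summed to whole numbers, 13889 in the v1 precipitate, 5980 in the v2 precipitate, 126155 in the v1 input and 153446 in the v2 input, while its own value in the v1 precipitate was 6944.5. Levels below are those of the listed ID alone. With each pair summed, the log2 ratios of RIP over input stayed within counting error. Summing equal or nearly equal values cannot move a ratio by much, so this is no check of the ratios. RN7SK and the Y RNAs also have many related copies in the human genome, and the vault RNAs a few. The sources used here do not say how reads that match several places were counted.

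All 8 RNAs were lower in RIP than in input on TMM scaling, and 6 of 8 passed the test (edgeR's quasi-likelihood test over both constructs, Benjamini-Hochberg adjusted p under 0.05), where 15.8% of the 41622 IDs tested were called lower. None of the 8 was called higher, as 49.5% of the IDs tested were. That background rests on both RIP libraries: 20595 IDs were called higher, against 938 without the v1 precipitate and 1082 without the v2 precipitate, 8289 with the construct as a block, 4386 in a fit of only IDs found in an input and 3418 among IDs that reach 50 counts in each input. The 6 were RN7SK, RPPH1, VTRNA1-1, VTRNA1-3, RNY1 and RNY3. The median log2 ratio of RIP over input was -3.88 for the 8 RNAs and 3.65 for all IDs tested, of which 12812 had 0 counts in both inputs. Fits of fewer IDs gave a median of 0.85 for IDs found in at least 1 input and -0.03 for IDs that reach 50 counts in each input, as all 8 RNAs do. The share called lower differed strongly with the input level, from 4.70% of IDs at a mean input of 1 to 10 CPM to 53.1% at 10 to 100 CPM, 99.2% at 100 to 1000 CPM and 90.6% above 1000 CPM. Each RNA is therefore set beside the IDs of its own input range, a grouping that by itself tends to place RIP below input at the top. With the same IDs, scaling on library totals moved the median of all by 1.20 on the log2 scale and DESeq2 size factors by 0.34. Leaving out the v1 input, which changes the IDs tested, moved it by 2.01. The p-values rest on 2 constructs per fraction, which are not replicates of each other, and on 1 library per group.

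**Figure D1:**
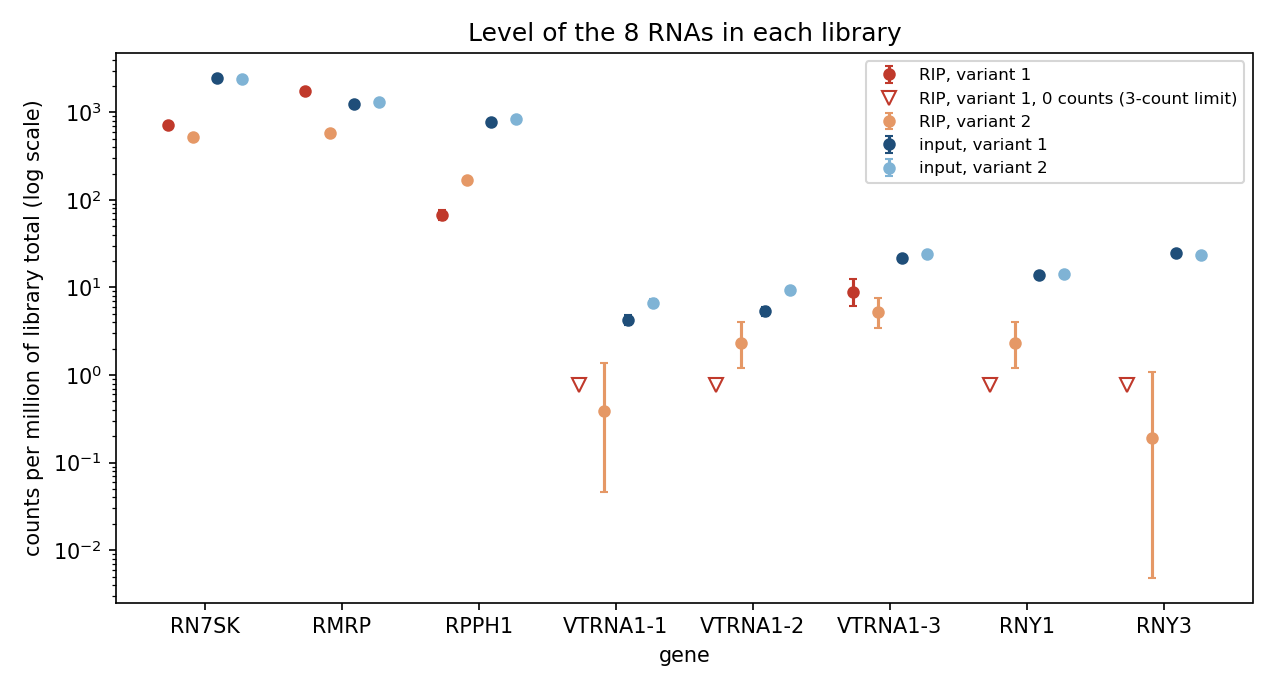
Level of each RNA (CPM on library totals, log scale) in the 4 libraries; points are single libraries, bars 95% Poisson intervals, and open triangles mark 0 counts at the level of 3 counts. RMRP in the v1 precipitate lies above both its inputs, at 1771 CPM, while the other RIP points of the 8 RNAs lie below their inputs.

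RN7SK was lower in RIP with both variants. It had 724 CPM (interval 697 to 751) in the v1 precipitate and 517 CPM (498 to 537) in the v2 precipitate, against 2456 CPM in the v1 input and 2428 CPM in the v2 input. Both RIP values lay below both inputs, and the inputs were nearly equal. On TMM scaling RN7SK was 7.69-fold lower in the v1 precipitate than in its input (7.41 to 7.98) and 10.6-fold lower in the v2 precipitate (10.2 to 11.0), with an edgeR adjusted p of 0.00067 for both together. On library totals it was 3.39-fold and 4.70-fold lower for variants 1 and 2.

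Against IDs of like input level, RN7SK was not among the lowest in RIP. The 85 IDs above 1000 CPM in the inputs had a median log2 ratio of -3.91 with variant 1 and -3.89 with variant 2, while RN7SK had -2.94 and -3.40. Of these IDs, 17 had a higher ratio than RN7SK with variant 1 and 30 with variant 2. RN7SK ranked 22nd among all IDs in the v1 precipitate and 29th in the v2 precipitate, against 26th in the v1 input and 27th in the v2 input. Its place in the order of abundance was thus much the same in RIP and in input.

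The profile of RN7SK over the 4 libraries was closest to that of ENSG00000124942, with a Euclidean distance of 0.46 in log2 CPM. That ID had 642 CPM in the v1 precipitate and 384 CPM in the v2 precipitate, against 2471 and 2418 CPM in their inputs. The next was ENSG00000111640, at a distance of 0.70, with 532 CPM in the v1 precipitate and 684 CPM in the v2 precipitate, against 2845 and 2966 CPM in their inputs. Neither ID is named by the files.

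RMRP, the RNA of RNase MRP, stood out from the other 7 RNAs. It had 1771 CPM (1730 to 1813) in the v1 precipitate and 574 CPM (553 to 595) in the v2 precipitate, against 1250 CPM in the v1 input and 1304 CPM in the v2 input. The v1 precipitate was the only library of the 8 RNAs in which a RIP level exceeded an input level, and only the v2 precipitate fell below the inputs. On library totals RMRP was 1.42-fold higher in the v1 precipitate than in its input (1.38 to 1.45) and 2.27-fold lower in the v2 precipitate. On TMM scaling it was 1.60-fold lower and 5.12-fold lower for variants 1 and 2, so the direction with variant 1 depended on the scaling. Over both constructs RMRP did not pass the test, with a log2 ratio of -1.30 (edgeR adjusted p = 0.053). When the construct was kept as a block, its adjusted p was 0.042, and over all 14 alternative settings it lay between 0.0027 and 0.86.

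Few abundant IDs had as high a ratio of RIP over input with variant 1. Among the 85 IDs above 1000 CPM in the inputs, 6 had a higher ratio of RIP over input than RMRP with variant 1 and 14 with variant 2. In the order of abundance RMRP was 12th in the v1 precipitate and 25th in the v2 precipitate, against 61st in the v1 input and 55th in the v2 input. Both RIP ranks were ahead of both input ranks.

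RPPH1, the RNA of RNase P, went the other way from RMRP between the variants. It had 67.5 CPM (59.6 to 76.1) in the v1 precipitate and 168 CPM (158 to 180) in the v2 precipitate, against 777 CPM in the v1 input and 848 CPM in the v2 input. Both RIP libraries lay far below both inputs. RPPH1 was 26.1-fold lower in the v1 precipitate (23.1 to 29.6) and 11.3-fold lower in the v2 precipitate (10.6 to 12.1) on TMM scaling, and 11.5-fold and 5.03-fold lower on library totals (edgeR adjusted p = 0.0016 over both constructs). Nearly all IDs at 100 to 1000 CPM in the inputs were called lower too. Of these 2005 IDs, 4.89% had a lower ratio than RPPH1 with variant 1 and 25.1% with variant 2. Their median log2 ratios were -2.92 and -2.96, against -4.70 and -3.50 for RPPH1. Their median input was 175 CPM with either variant, so RPPH1 stood near the top of this range, and higher still with its pair summed. The 85 IDs above 1000 CPM had median log2 ratios of -3.91 and -3.89, below RPPH1 with variant 2 but not with variant 1. In the order of abundance RPPH1 was at rank 2791 in the v1 precipitate and rank 233 in the v2 precipitate, against ranks 125 and 109 in the inputs of variants 1 and 2.

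**Figure D2:**
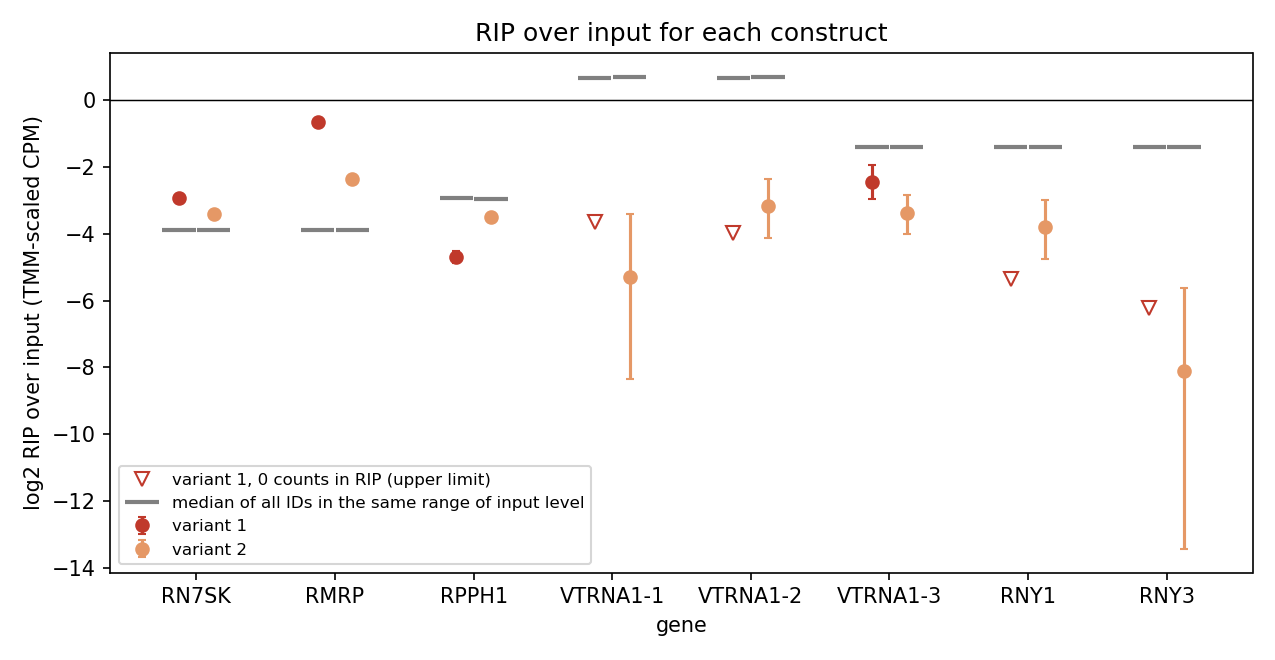
Log2 ratio of RIP over input (TMM-scaled CPM) of each RNA for variant 1 and variant 2; bars are 95% Clopper-Pearson intervals, open triangles are upper limits where the v1 precipitate had 0 counts, and grey lines are the medians of all IDs in the same range of input level. RN7SK and RMRP lie above their grey lines, and the other 6 RNAs below theirs. RPPH1 is near the top of its range of input level. With variant 2 it lies above the median of the next range, -3.89.

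The balance of RMRP and RPPH1 within a library needs no scaling between libraries. There were 26.3 RMRP counts per RPPH1 count in the v1 precipitate (23.2 to 29.8) and 3.41 in the v2 precipitate (3.16 to 3.68), against 1.61 in the v1 input and 1.54 in the v2 input. The ratio was higher in both RIP libraries than in either input, 16.3 times its input value with variant 1 and 2.21 times with variant 2. RMRP counts per RN7SK count were 4.81 times their input ratio with variant 1 and 2.07 times with variant 2. RN7SK relative to RPPH1 was 3.39 times its input ratio with variant 1 and 1.07 times with variant 2. Each of these ratios compares single libraries and has no test.

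The vault RNAs left few reads in RIP. VTRNA1-1 had 0 counts in the v1 precipitate and 2 in the v2 precipitate, against 214.8 counts (4.26 CPM) in the v1 input and 391.5 (6.66 CPM) in the v2 input. At the input levels, 16.7 counts would stand in the v1 precipitate and 34.7 in the v2 precipitate, so both RIP libraries were low. It was at least 12.6-fold lower in the v1 precipitate and 39.1-fold lower in the v2 precipitate (10.7 to 324) on TMM scaling, and at least 5.56-fold and 17.3-fold lower on library totals. The 0 was set to 3 counts for such bounds, here and below. The edgeR adjusted p was 0.015. It was 0.087 when the construct was kept as a block, and 0.14 or 0.092 without the v1 precipitate or the v2 precipitate.

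VTRNA1-2 had 0 counts in the v1 precipitate and 12 (2.30 CPM) in the v2 precipitate, against 271.6 counts (5.38 CPM) in the v1 input and 545 (9.27 CPM) in the v2 input. Its RIP libraries thus lay below both inputs, but apart from each other. It was at least 15.9-fold lower in the v1 precipitate and 9.07-fold lower in the v2 precipitate (5.15 to 17.7) on TMM scaling, and at least 7.04-fold and 4.02-fold lower on library totals. Over both constructs it did not pass the test (edgeR adjusted p = 0.069), and most alternative settings did not call it either. The edgeR adjusted p was 0.12 with the construct as a block and 0.20 on library totals. It was 0.024 with no filter and 0.032 with counts halved, and limma-voom gave an adjusted p of 0.032.

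VTRNA1-3 was the vault RNA with counts in every library. It had 35 counts (8.93 CPM, 6.22 to 12.4) in the v1 precipitate and 27 (5.18 CPM, 3.41 to 7.54) in the v2 precipitate, against 1081.2 counts (21.4 CPM) in the v1 input and 1422.5 (24.2 CPM) in the v2 input. Both RIP values lay below both input values, with 1 library each. Of IDs at 10 to 100 CPM in the inputs, 53.1% were called lower. On TMM scaling it was 5.44-fold lower in the v1 precipitate (3.89 to 7.85) and 10.5-fold lower in the v2 precipitate (7.20 to 16.0), and on library totals 2.40-fold and 4.67-fold (edgeR adjusted p = 0.0078, and 0.069 on library totals).

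IDs in the input range of VTRNA1-1 and VTRNA1-2 were mostly not lower in RIP, but the range is not a close match. Its median input, 2.97 CPM with variant 1 and 3.04 CPM with variant 2, lay below the inputs of both RNAs. In the next range, 10 to 100 CPM, the median log2 ratios were -1.40 and -1.41. The 6835 IDs at 1 to 10 CPM in the inputs had median log2 ratios of 0.64 with variant 1 and 0.69 with variant 2, and 8.66% were at 0 in the v1 precipitate and 3.35% in the v2 precipitate. A lower ratio than that of VTRNA1-1 was present for 2.00% of them with variant 1 and 2.88% with variant 2, and a lower one than that of VTRNA1-2 for 1.42% and 7.46%. Among the 7794 IDs at 10 to 100 CPM, 24.8% had a lower ratio than VTRNA1-3 with variant 1 and 6.70% with variant 2.

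RNY3 was the lowest of the 8 in RIP for its input level with variant 2. With variant 1, RNY3, RNY1, VTRNA1-1 and VTRNA1-2 were all at 0 counts, so their order there follows from their input counts. RNY3 had 0 counts in the v1 precipitate and 1 in the v2 precipitate, against 1260.51 counts (25.0 CPM) in the v1 input and 1392.55 (23.7 CPM) in the v2 input. At the input levels 98.0 and 123 counts would stand in the RIP libraries of variants 1 and 2. RNY3 was at least 74.0-fold lower in the v1 precipitate and 278-fold lower in the v2 precipitate (49.8 to 10990) on TMM scaling, and at least 32.7-fold and 123-fold lower on library totals (edgeR adjusted p = 0.0014). Its call held under all 14 alternative settings.

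RNY1 had 0 counts in the v1 precipitate and 12 (2.30 CPM) in the v2 precipitate, against 699.8 counts (13.9 CPM) in the v1 input and 838.9 (14.3 CPM) in the v2 input. At the input levels 54.4 and 74.3 counts would stand in RIP, so both libraries were low, and the v1 precipitate held none of them. It was at least 41.1-fold lower in the v1 precipitate and 14.0-fold lower in the v2 precipitate (7.95 to 27.1) on TMM scaling, and at least 18.1-fold and 6.19-fold lower on library totals. The edgeR adjusted p was 0.023, against 0.083 on library totals, 0.067 without the v1 precipitate and 0.061 in a fit of only IDs found in an input.

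Among the 7794 IDs at 10 to 100 CPM in the inputs, the median log2 ratio was -1.40 with variant 1 and -1.41 with variant 2. Of these IDs 85 (1.09%) were at 0 in the v1 precipitate, RNY1 and RNY3 among them, and 15 (0.19%) in the v2 precipitate. A lower ratio than that of RNY3 was present for 18 IDs with variant 1 and 16 with variant 2, and a lower one than that of RNY1 for 54 and 314. Ratios of IDs at 0 counts depend on the prior count of 2, so their order is approximate.

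**Figure D3:**
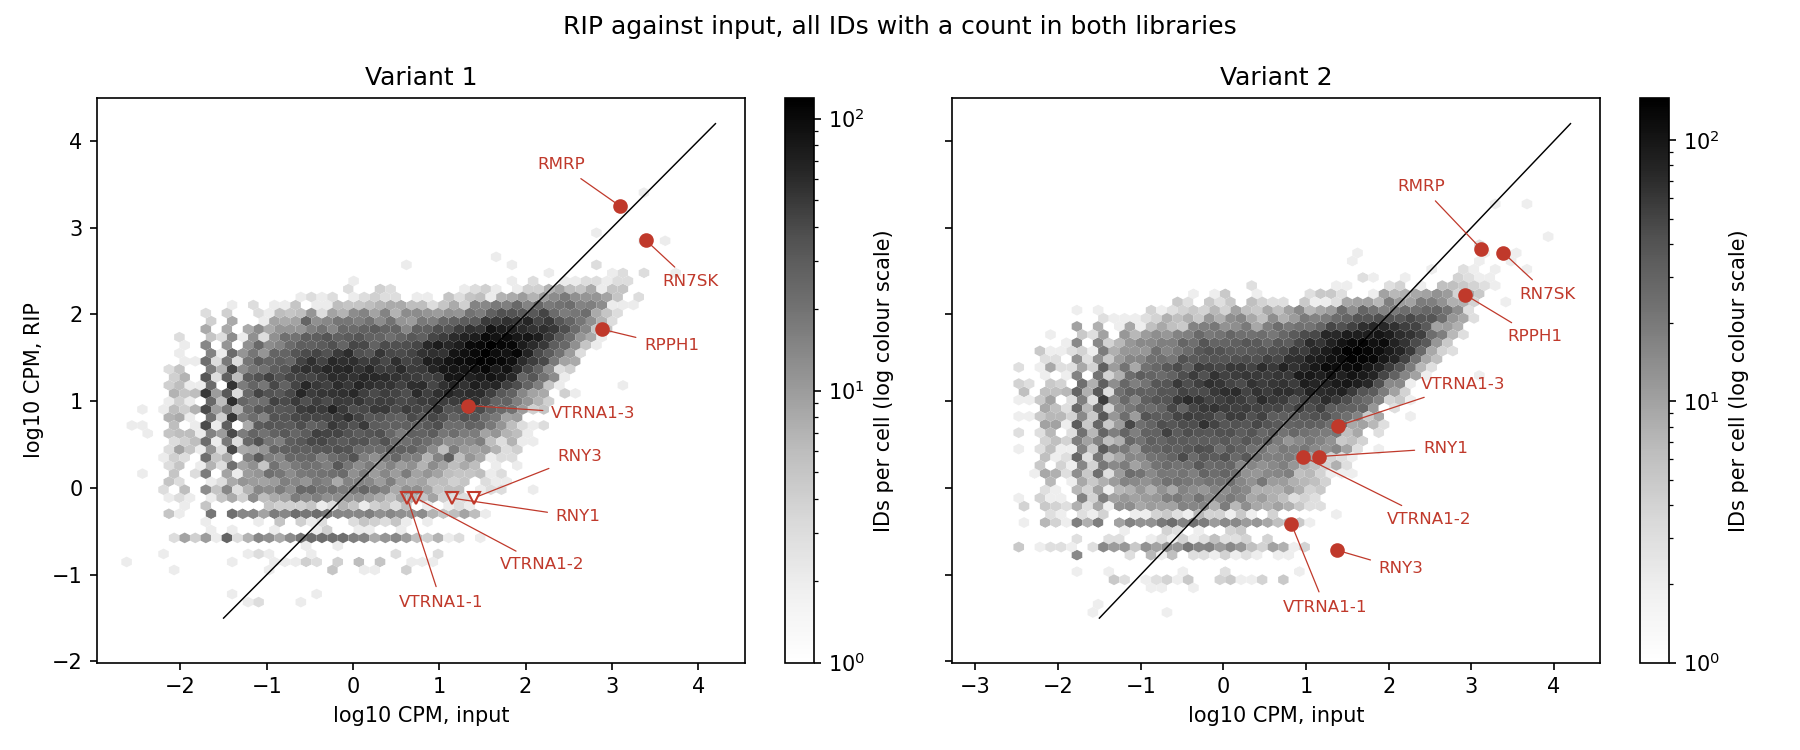
Level in RIP against level in input (log10 CPM) for all IDs with a count in both libraries, as grey cells, with the 8 RNAs in red; open triangles mark RNAs at 0 counts in the v1 precipitate, drawn at 3 counts, and the line marks equal CPM. The Y RNAs, VTRNA1-1 and VTRNA1-2 lie toward the lower right edge of the cloud, and VTRNA1-3 does so with variant 2. RNY3 is at 0 and 1 counts in RIP for variants 1 and 2. RN7SK and RMRP lie at the upper right end of the cloud.

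Summed over the 8 IDs, these RNAs took 0.257% of the counts in the v1 precipitate (interval 0.252% to 0.262%) and 0.127% in the v2 precipitate (0.124% to 0.130%), against 0.455% in the v1 input and 0.466% in the v2 input. RN7SK, RMRP and RPPH1 made up nearly all of it. The 5 vault and Y RNAs together had 35 counts in the v1 precipitate and 54 in the v2 precipitate, where 274 and 407 would stand at their input levels. On library totals their sum was 7.83-fold lower in the v1 precipitate and 7.53-fold lower in the v2 precipitate. These near-equal values pool unlike parts. The vault RNAs alone were 3.48-fold and 5.10-fold lower for variants 1 and 2, and all 35 counts in the v1 precipitate were of VTRNA1-3. The Y RNAs had 0 counts in the v1 precipitate and were 15.2-fold lower in the v2 precipitate. The sum of the 3 longer RNAs was 1.75-fold lower in the v1 precipitate and 3.64-fold lower in the v2 precipitate. RMRP made up 6944.5 of its 10046.95 counts in the v1 precipitate. There RMRP was 1.42-fold higher than in its input on library totals, while RN7SK was 3.39-fold and RPPH1 11.5-fold lower. In single libraries, 7 of 8 RNAs were at least 2-fold lower in the v1 precipitate than in its input and 8 of 8 in the v2 precipitate, on TMM scaling, where 23.1% and 21.2% of the IDs tested were. Of the IDs tested, 12812 had 0 counts in both inputs and could not be lower. The median log2 ratios for variants 1 and 2 were 0.64 and 0.69 at 1 to 10 CPM in the inputs, and -1.40 and -1.41 at 10 to 100 CPM. At 100 to 1000 CPM they were -2.92 and -2.96, and above 1000 CPM -3.91 and -3.89.

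The inputs of both variants were alike for most of the 8 RNAs. The ratio of the v1 input over the v2 input on TMM scaling was 1.03 for RN7SK, 0.97 for RMRP, 0.93 for RPPH1, 0.90 for VTRNA1-3, 0.99 for RNY1 and 1.07 for RNY3. VTRNA1-1 and VTRNA1-2 were further apart, with ratios of 0.65 (0.55 to 0.77) and 0.59 (0.51 to 0.68). None of the 8 was 2-fold apart between the inputs, where 2-fold or larger differences were seen for 14.1% of the IDs tested upward and 10.8% downward in the v1 input. Of IDs at 1 to 10 CPM in the inputs, 50.3% were at least as far apart as VTRNA1-1 and 42.1% as VTRNA1-2.

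The RIP libraries differed more. On TMM scaling, the v1 precipitate over the v2 precipitate was 3.12 for RMRP (2.99 to 3.26), 1.41 for RN7SK (1.34 to 1.49), 0.404 for RPPH1 (0.351 to 0.464) and 1.74 for VTRNA1-3 (1.02 to 2.99). The RMRP and RPPH1 differences exceed counting error and run in opposite directions. Library totals gave nearly the same ratios, 3.09 for RMRP and 0.400 for RPPH1. Taking the inputs into account, RMRP had a log2 ratio of RIP over input 1.68 higher with variant 1 than with variant 2 (1.62 to 1.74, normal approximation). The same difference was -1.20 for RPPH1 (-1.4 to -1.0, normal approximation). Of all IDs tested, 23.1% were at least 2-fold further enriched with variant 1 and 29.4% with variant 2.

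Among IDs with many RIP counts such distances were rarer. Of the 714 IDs with at least 1000 counts over both RIP libraries, the median size of the log2 difference between the v1 precipitate and the v2 precipitate was 0.33. Apart from RMRP and the neighbouring ID with the same values, 2 of them were as far apart as RMRP, whose log2 difference was 1.64. As far apart as RPPH1, at -1.30, were 18 others, and as far apart as RN7SK, at 0.50, were 217 others. With 1 library per construct, a difference between the constructs and one between preparations cannot be told apart.

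The low counts of the other RNAs allowed less. VTRNA1-2 and RNY1 each had 0 counts in the v1 precipitate and 12 in the v2 precipitate. With the 0 set to 3 counts, each was 3.01-fold lower with variant 1 on library totals, or 1.5-fold if a 0 allows 6 reads. These values take the 12 counts as exact and are not bounds. The log2 ratio of the v1 precipitate over the v2 precipitate had an interval of -8.05 to -0.21 for each (TMM scaling, normal approximation). The VTRNA1-2 inputs already differed (0.59), and its log2 difference in RIP over input between the variants had an approximate interval that includes 0 (-7.30 to 0.55). VTRNA1-1, with 0 and 2 counts, and RNY3, with 0 and 1, were too low in both RIP libraries for a comparison at this depth.

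**Figure D4:**
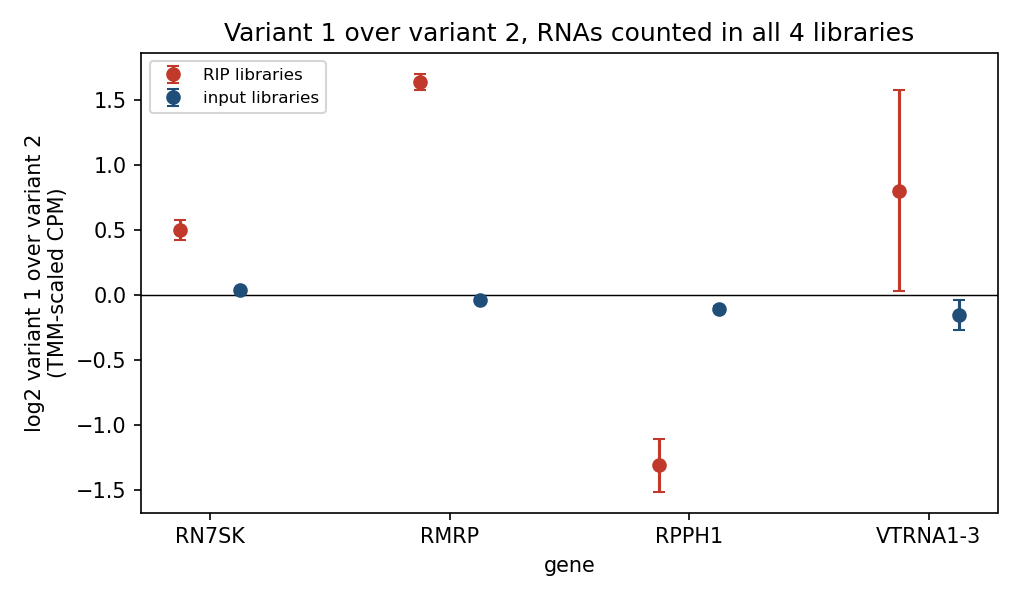
Log2 ratio of variant 1 over variant 2 (TMM-scaled CPM) in the RIP libraries and in the inputs, for the 4 RNAs with counts in all libraries; bars are 95% Clopper-Pearson intervals. The RIP libraries differ upward for RMRP, at 1.64, and downward for RPPH1, at -1.30, while the inputs lie near 0.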

How the data were processed

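Per the file headers, the deposited tables give 1 raw count per Ensembl ID, and since part of the values are fractional they were taken as estimated counts (13.9% to 18.0% of a library's values). Per the submitters' processing notes, HISAT2 2.1.0, featureCounts, Subread 2.0.0 and GRCh38.p13 were used. The sources used here give neither the gene annotation, nor the strandedness, nor what was done with shared reads. The reference table (59792 genes) holds 0 Ensembl IDs, and its promoter and miRNA sequences hold none of the 8 RNAs.

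Counts were rounded and fitted over all IDs with edgeR 4.0.16 in R 4.3.3 (TMM, expression filter by fraction with a minimum count of 10, quasi-likelihood test, 2 residual degrees of freedom). Per the labels, RIP and input of 1 number come from 1 transfected line, so the numbers pair them. The differences between variants in RIP and in input had a correlation of -0.0041 over the 41622 IDs. The paired alternative kept the construct as a block, with 1 residual degree of freedom. Ratios of single libraries use TMM-scaled CPM, with a prior count of 2 on the log2 scale; a 0 was set to 3 counts for bounds. All 8 RNAs were named, whatever their values. DESeq2 1.42.0 and limma-voom (limma 3.58.1) were alternatives. Members, lists and tests were chosen with earlier results of these data known.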

Additional observations from a re-analysis of the deposited data

How the results depend on the processing

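Of the 8 RNAs, 6 were called lower in RIP in the main setting, and also with the construct as replicate block, where RMRP passed (log2 ratio -1.52, adjusted p = 0.042) and VTRNA1-1 did not (-6.27, adjusted p = 0.087). Other settings called 4 (library totals) to 8 (no filter, counts halved, limma-voom), and leaving out 1 library called 5 to 8; no RNA was called higher in any. RN7SK, RPPH1 and RNY3 were called in all 14 alternatives. RMRP in the v1 precipitate over its input turned to a log2 ratio of 0.50 on library totals, against -0.68 on TMM scaling. RNAs whose RIP over input was at least 2-fold lower with variant 1 than with variant 2 numbered 5 of 8 with a prior count of 2. Of all IDs tested, 29.4% were so too. With a prior count of 5 there were 3 such RNAs, and the share of all IDs was not computed. Most of these RNAs are at 0 counts in the v1 precipitate. Over all IDs, 6583 of 41622 were called lower, against 3213 of 41622 on library totals. That setting kept the same IDs and counts and changed only the scaling, which moved the median log2 ratio by 1.20. A fit of only those IDs that reach 50 counts in each input, which tests fewer IDs, called 3655 of 15436 lower. No filter, counts halved and limma-voom called 7001 of 55003, 6868 of 37637 and 6236 of 41622 IDs lower. If both reads of a fragment were counted, a 0 allows 6 reads, and the bounds for the v1 precipitate fall to 6.31-fold for VTRNA1-1, 7.97-fold for VTRNA1-2, 20.5-fold for RNY1 and 37.0-fold for RNY3. Summed ID pairs and the 6-read floor were added after seeing the data. The summed pairs count among the 14 alternatives, though they could hardly move these ratios. The RIP depth limits the vault and Y RNAs, and 1 library per group limits every comparison.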

Other observations

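The row before RNY3 in the files, ENSG00000252316, had a pattern like that of RNY3, and was chosen after its values were seen. It had 2.4 and 2.8 counts in the RIP libraries of variants 1 and 2, against 1310.87 and 1487.93 counts in the inputs (26.0 and 25.3 CPM). The files do not name it.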
